A study of Mus musculus with 6 samples.

Results

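The genes described here are 48 nuclear genes of respiratory complexes II, III, IV and V, chosen by name: 4 subunits of complex II, 9 of complex III, 11 of complex IV, 7 complex IV assembly genes and 17 genes of complex V. The complex V genes include the inhibitor gene Atpif1 and the coupling factor gene Atp5s, which are counted with the subunits below. Each was found on 1 row of a deposited table of 23094 named rows, and 47 passed the minimum mean level of 1 RPKM for testing, among 8302 tested rows. Sco1, at 0.76 RPKM on average, did not pass. RPKM is a read number scaled to transcript length and to the mapped total of the library. The RNA came from C57BL/6 mouse fetal liver at embryonic day 13.5, from erythroid cells sorted as double positive for Ter119, an antigen of the red cell lineage, and CD71, which takes up transferrin. Libraries were labelled Tfam KO (n = 3) or Tfam WT (n = 3), and both groups share strain, stage, organ and sort gate. The labels name no Cre driver, litter or sex for either group, and they do not say whether replicates were separate embryos, so a p-value here speaks only of the spread among the libraries, which may be technical.

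The respiratory chain passes electrons from nutrients to oxygen and pumps protons across the inner mitochondrial membrane, and complex V, the ATP synthase, uses the returning protons to make ATP. Complexes III, IV and V each combine nuclear-encoded subunits with core subunits encoded by mitochondrial DNA, whereas all subunits of complex II, succinate dehydrogenase, are nuclear. TFAM binds and compacts mitochondrial DNA and helps to transcribe it, so the comparison of KO with WT asks how nuclear partners of those core subunits, and complex II as the complex without any, were expressed in erythroblasts. Erythroblasts use mitochondria for heme synthesis as well as for ATP, and lose them late in maturation.

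WT replicate 3 stood apart from the other libraries across the whole table. Its RPKM values summed to 815524, against 424377, 432458 and 535933 in KO replicates 1, 2 and 3 and 461927 and 423263 in WT replicates 1 and 2, and its log2 values correlated across rows at 0.93 to 0.962 with those of other libraries, where the other 5 had 0.973 to 0.986 among themselves. Results are therefore given with and without it. Tfam RNA was at 5.92, 7.22 and 6.25 RPKM in KO libraries, against 7.22, 8.44 and 5.72 RPKM in WT libraries, with overlap between the groups (p = 0.7 by an exact permutation test, two-sided, which cannot go below 0.1 here). A gene-level value does not separate deleted from remaining exons, so the Tfam level does not check the labels. All 11 erythroid markers were detected, at a summed 10475 to 13873 RPKM per library. The 10 macrophage markers summed to 7.61, 11.7 and 4.55 RPKM in KO libraries and 13.0, 12.2 and 18.7 RPKM in WT libraries, with Cd163 listed at 0. The 8 neutrophil markers, all detected, summed to 29.2, 75.0 and 54.7 RPKM in KO libraries and 39.3, 40.3 and 173 RPKM in WT libraries. Hepatocyte markers summed to 82.4, 139 and 15.3 RPKM in KO libraries and 87.5, 56.9 and 42.2 RPKM in WT libraries, and megakaryocyte markers to 49.2, 68.2 and 14.4 RPKM in KO libraries and 58.2, 56.6 and 30.4 RPKM in WT libraries. By the sums of both lists KO replicate 3 and WT replicate 3 were the lowest of their groups, and in these libraries the respiratory genes stood highest. Single markers differed: within WT, replicate 3 was the lowest for Alb, Afp and Trf but the highest for Apoa1, Apoa2, Ttr, Serpina1a and Ahsg. Of the megakaryocyte markers, Gp9 was highest in WT replicate 3 within WT, and the others were lowest there. The part of other cells in the results below was not tested, and in bulk RNA fewer cells of a type cannot be told apart from less RNA per cell.

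None of the nuclear genes of complexes II to V differed between KO and WT beyond the spread of the libraries. By limma with Benjamini-Hochberg adjustment over all tested rows, 0 of 47 passed an adjusted p of 0.05, where 0% of the 8302 rows passed, and the lowest adjusted p among the 47 was 0.909. Before adjustment, 0 of 47 genes and 100 of 8302 rows had a p under 0.05. Without WT replicate 3, 0 of 47 passed, where 0.012% of rows did, and 0 of 47 and 183 of 8302 had an unadjusted p under 0.05. In no gene did every KO library lie on one side of every WT library, whereas 2.36% of rows lay wholly below and 2.18% wholly above. The same was true against WT replicates 1 and 2 alone, where 5.9% of rows lay wholly below and 5.42% wholly above.

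The fitted differences pointed downward with all 6 libraries, and most pointed upward once WT replicate 3 was left out. With all libraries 44 fitted values were below 0 and 3 above (Cox10, Cox15 and Atp5g2), with a median log2 fold change of -0.35 (range -0.57 to 0.25), beside -0.02 over all tested rows. Without WT replicate 3, 18 were below 0 and 29 above, with a median of 0.03 (range -0.20 to 0.24), beside -0.01 over all tested rows. Of all 8302 tested rows, 4402 had fitted values below 0 and 3900 above with all libraries. Without WT replicate 3 these counts were 4570 below and 3731 above. Fold changes are KO minus WT on the log2(RPKM + 1) scale. Compared by replicate number, KO was lower in 44 of 47 genes in the libraries numbered 1, in 16 in those numbered 2 and in 43 in those numbered 3. Over all 8302 tested rows KO was lower in 4574, 4879 and 4259 in the same order. In 13 of 47 genes (27.7%) KO was lower in all 3 numbered comparisons, against 20.1% of all tested rows.

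**Figure D1:**
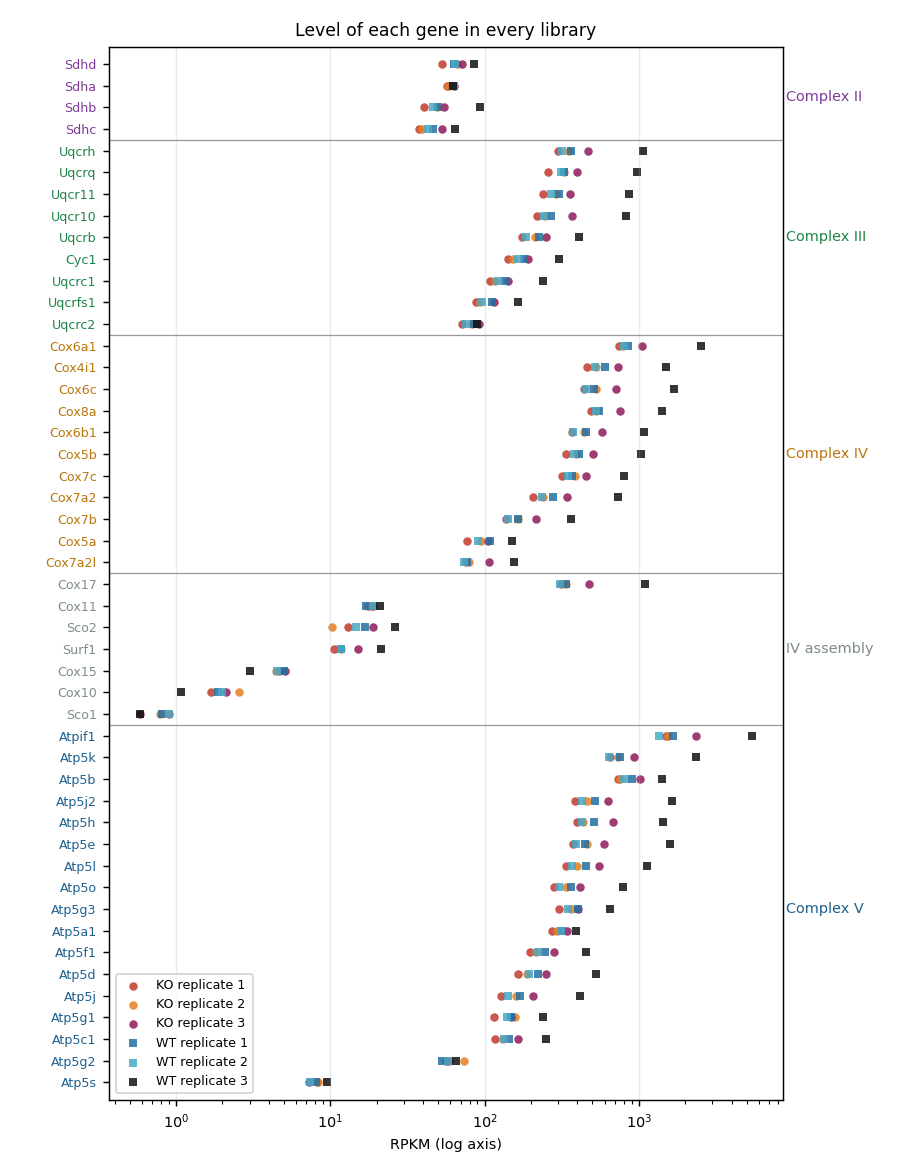
Level of each of the 48 genes in RPKM (log axis) in KO replicates 1 to 3 (circles) and WT replicates 1 to 3 (squares), grouped by complex and ordered by mean level within it. WT replicate 3 is the highest library in 42 of 48 genes, and the other libraries lie close together, with KO replicate 3 the highest of these 5 in 41 genes.

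The genes moved together from library to library, and the libraries at the extremes did not follow the group labels alone. WT replicate 3 was the highest library in 42 of 48 genes (87.5%), against 41.7% of all tested rows, and KO replicate 1 was the lowest in 37 of 48 (77.1%), against 22.9% of rows. Among the other 5 libraries, KO replicate 3 was the highest in 41 of 48 genes (85.4%), against 39.1% of rows. The median log2 deviation of the 47 tested genes from their 6-library mean was -0.41, -0.24 and 0.11 in KO replicates 1, 2 and 3, against -0.12, -0.29 and 0.80 in WT replicates 1, 2 and 3. Over all tested rows this median stayed between -0.04 and 0.04. The order of the 48 genes by level was nearly the same everywhere: Spearman's rho across genes was 0.995 to 0.998 between any 2 of the 5 other libraries, and 0.975 to 0.986 between these and WT replicate 3.

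The promoters of the most highly expressed genes of each complex are shown because many respiratory genes are known to carry sites for nuclear respiratory factor 1 (NRF1) and for the ETS-family factor GABP, also called NRF2, transcription factors that act on many of them. RefSeq promoters on build GRCm38.p6 matched 39 of the 48 genes; Sdhc, Uqcrc2, Uqcrb, Uqcrq, Cyc1, Cox4i1, Cox6c, Cox17 and Atp5a1 were not matched. For each complex, the 250 bases before the transcription start are given for the matched gene with the highest mean RPKM, each on the minus strand of the genome and written 5′ to 3′ along the gene. These coordinates are on GRCm38.p6, not on the mm9 build named for the RPKM table. Capitals mark matches on either strand to an NRF1-like motif (CGCNTGCGC) or an ETS-like motif (CCGGAAG).
Sdhd (complex II), chr9:50603850-50604099: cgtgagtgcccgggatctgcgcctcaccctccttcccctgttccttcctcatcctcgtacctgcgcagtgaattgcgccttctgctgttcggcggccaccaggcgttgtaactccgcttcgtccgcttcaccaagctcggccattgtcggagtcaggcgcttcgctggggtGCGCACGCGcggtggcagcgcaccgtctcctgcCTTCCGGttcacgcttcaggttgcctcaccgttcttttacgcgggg
Uqcrh (complex III), chr4:116075071-116075320: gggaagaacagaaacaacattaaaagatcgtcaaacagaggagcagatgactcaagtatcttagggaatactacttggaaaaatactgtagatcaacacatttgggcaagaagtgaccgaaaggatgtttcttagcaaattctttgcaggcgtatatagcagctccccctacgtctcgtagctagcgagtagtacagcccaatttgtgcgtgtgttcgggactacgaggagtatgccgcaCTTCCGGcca
Cox6a1 (complex IV), chr5:115348959-115349208: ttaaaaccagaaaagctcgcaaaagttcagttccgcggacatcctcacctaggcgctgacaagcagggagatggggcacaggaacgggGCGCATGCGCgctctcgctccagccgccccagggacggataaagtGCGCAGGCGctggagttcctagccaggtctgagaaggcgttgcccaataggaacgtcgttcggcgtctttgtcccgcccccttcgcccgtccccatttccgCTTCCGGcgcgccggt
Atpif1 (complex V), chr4:132535415-132535664: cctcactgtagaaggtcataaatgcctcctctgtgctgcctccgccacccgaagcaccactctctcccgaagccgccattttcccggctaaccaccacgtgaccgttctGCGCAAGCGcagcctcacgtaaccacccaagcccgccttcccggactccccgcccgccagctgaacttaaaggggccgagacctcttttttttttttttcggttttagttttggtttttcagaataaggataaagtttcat
The window of Sdhd held 1 match to each motif, that of Uqcrh 1 ETS-like match and that of Atpif1 1 NRF1-like match. In Cox6a1 the 3 NRF1-like matches include 1 palindromic stretch counted on both strands, and 1 ETS-like match lies near the start. Across the windows of 250 bases before to 50 after the start, the NRF1-like motif was found in 13 of 39 genes (33.3%), against 7.03% of all 27025 genes with a promoter in the table and 18.7% of the 5926 tested genes among them, counting a match in any promoter of a gene. The ETS-like motif was found in 16 of 39 (41.0%), against 9.93% and 25.1% of those genes. Of the 39 genes 23 held at least 1 of the 2 motifs and 6 held both: 3 of 3 complex II genes held at least 1, as did 3 of 5 in complex III, 3 of 9 among complex IV subunits, 4 of 6 among assembly genes and 10 of 16 in complex V. A YY1-like motif (AAGATGGCG) was found for 3 of 39 genes (7.69%), against 1.64% of all and 4.93% of tested genes, and the TATA-like TATAAA in 2 of 39 (5.13%), against 15.7% and 7.59%. A match to these letters describes the window only.

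RNA for both factors was measured. Nrf1, which encodes NRF1, was at 30.7, 29.9 and 42.8 RPKM in KO libraries, against 36.5, 37.7 and 43.7 RPKM in WT libraries (log2 fold change -0.20, SE 0.19; -0.12, SE 0.18, without WT replicate 3). Gabpa, the DNA-binding subunit of GABP, was at 9.28, 9.75 and 8.70 RPKM in KO libraries, against 9.22, 9.55 and 5.30 RPKM in WT libraries (log2 fold change 0.22, SE 0.22; -0.02, SE 0.11, without WT replicate 3). The groups overlapped in both genes, and WT replicate 3 was the highest library for Nrf1 and the lowest for Gabpa. Among 10 tested nuclear regulators of respiratory genes 0 passed, with 4 fitted values below 0 and 6 above (median 0.09), and without WT replicate 3 there were 7 below and 3 above (median -0.02).

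Complex II, which oxidises succinate to fumarate and hands the electrons to ubiquinone, was expressed evenly among its 4 subunits, at means of 47.4 to 67.5 RPKM over the 6 libraries. Sdha, the flavoprotein that holds the active site, was at 57.1, 58.2 and 63.5 RPKM in KO libraries, against 62.9, 63.1 and 62.1 RPKM in WT libraries. It was the steadiest of the 4 across WT libraries, and KO replicate 3 was its highest library by a small margin. The log2 fold change of Sdha was -0.07 (95% interval -0.42 to 0.28), and -0.08 (-0.39 to 0.23) without WT replicate 3. Sdhb, the iron-sulfur protein that relays the electrons, was at 40.7, 49.2 and 54.7 RPKM in KO libraries, against 50.2, 46.2 and 93.8 RPKM in WT libraries. Only WT replicate 3 stood clear of the rest for Sdhb, and its log2 fold change was -0.32 (SE 0.29), or -0.01 (SE 0.16) without that library. The ratio of Sdhb to Sdha was 0.713, 0.845 and 0.861 in KO libraries and 0.798, 0.732 and 1.51 in WT libraries.

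The membrane anchors that bind ubiquinone and heme followed Sdhb. Sdhc was at 37.5, 39.1 and 52.7 RPKM in KO libraries, against 46.7, 43.3 and 64.8 RPKM in WT libraries (log2 fold change -0.25, SE 0.22; -0.08, SE 0.17, without WT replicate 3). Sdhd was at 53.1, 66.4 and 71.3 RPKM in KO libraries, against 63.8, 64.3 and 85.9 RPKM in WT libraries (-0.16, SE 0.20; -0.02, SE 0.16). In both anchors KO replicate 1 was the lowest and WT replicate 3 the highest library, and the groups overlapped. Over the complex, 4 of 4 fitted values were below 0 with a median of -0.20, and without WT replicate 3 again 4 of 4, with a median of -0.05.

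Complex III carries electrons from ubiquinol to cytochrome c, and its genes ranged from 82.9 to 478 RPKM on average. The core proteins and the redox subunits were the less abundant RNAs: Uqcrc2 at 82.9, the Rieske iron-sulfur protein Uqcrfs1 at 112, the core protein Uqcrc1 at 144 and cytochrome c1 (Cyc1) at 189 RPKM on average. The small subunits Uqcrb, Uqcr10, Uqcr11, Uqcrq and Uqcrh had means of 242 to 478 RPKM. Uqcrh, the acidic hinge protein beside the cytochrome c site, was at 298, 353 and 467 RPKM in KO libraries, against 363, 316 and 1069 RPKM in WT libraries. KO replicate 3 was above WT replicates 1 and 2, and WT replicate 3 was above every KO library. The log2 fold change of Uqcrh was -0.44 (SE 0.48), and 0.11 (SE 0.23) without WT replicate 3.

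Uqcrq, a small membrane subunit, was at 257, 328 and 398 RPKM in KO libraries, against 327, 315 and 977 RPKM in WT libraries. Its log2 fold change, -0.53 (95% interval -1.63 to 0.58), was the lowest of complex III, and became 0.01 (-0.50 to 0.52) without WT replicate 3. Uqcr11, another small subunit, was at 238, 290 and 359 RPKM in KO libraries, against 303, 268 and 860 RPKM in WT libraries (log2 fold change -0.50, SE 0.46; 0.03, SE 0.21, without WT replicate 3). In both genes 1 library of 6 set the sign. The core proteins and redox subunits departed less in WT replicate 3. It was 1.11-fold the mean of WT replicates 1 and 2 for Uqcrc2, 1.59-fold for Uqcrfs1, 1.76-fold for Cyc1 and 1.86-fold for Uqcrc1. The small subunits ran from 1.98-fold for Uqcrb to 3.24-fold for Uqcr10. All 9 fitted values of complex III were below 0 (median -0.38), and without WT replicate 3 there were 3 below and 6 above (median 0.02).

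**Figure D2:**
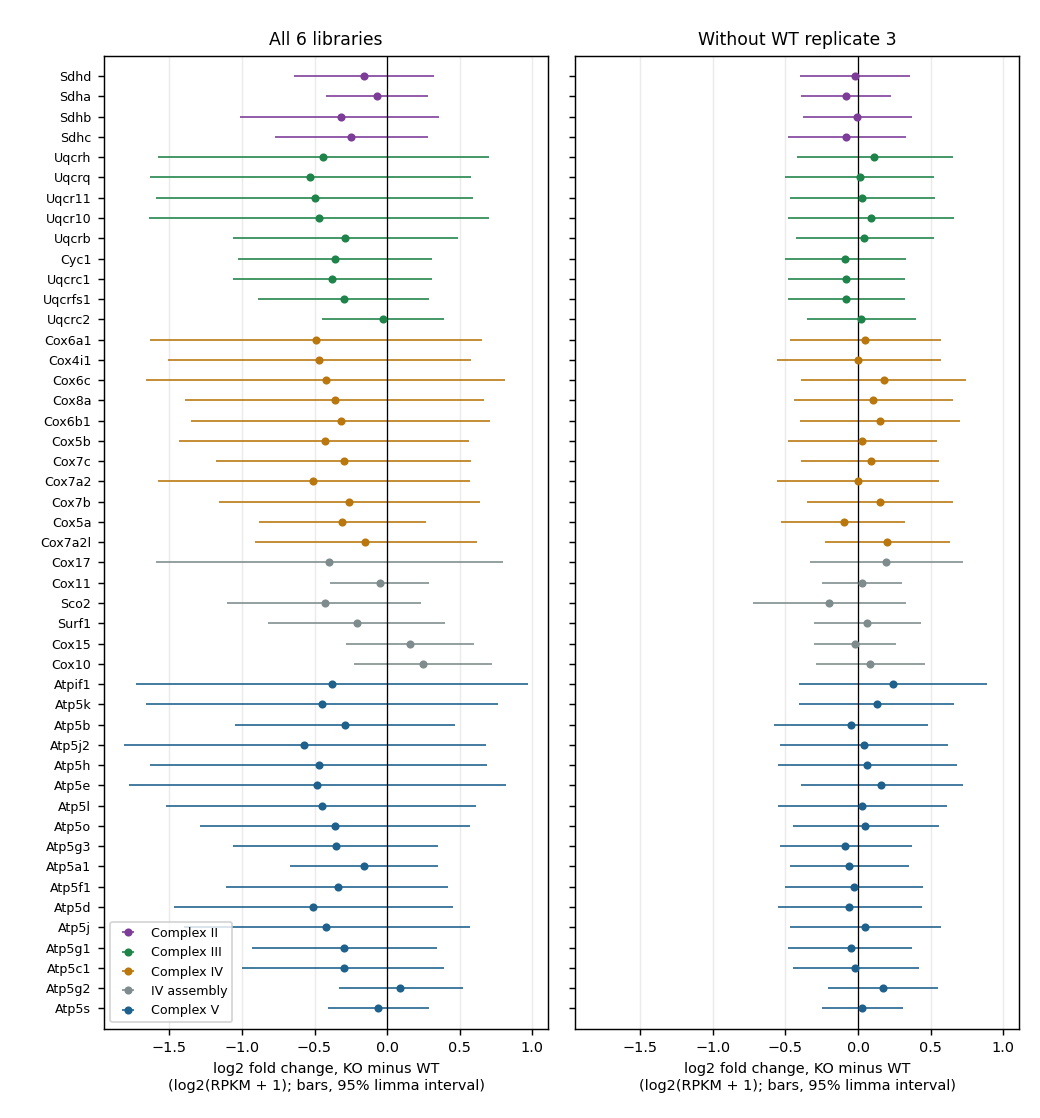
Log2 fold change, KO minus WT on the log2(RPKM + 1) scale, of the 47 tested genes with 95% limma intervals, from all 6 libraries (left) and without WT replicate 3 (right), coloured by complex. Every interval crosses 0 in both panels, and the points shift from a median of -0.35 on the left to 0.03 on the right.

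Complex IV, cytochrome c oxidase, reduces oxygen to water, and its 11 nuclear subunits surround the mitochondrially encoded catalytic core. Their mean levels ran from 94.8 RPKM for Cox7a2l to 1126 RPKM for Cox6a1, with a median of 508 RPKM, against 58.5 RPKM for complex II. Cox6a1, the subunit VIa isoform found outside heart and muscle, was at 748, 790 and 1045 RPKM in KO libraries, against 847, 799 and 2526 RPKM in WT libraries. KO replicates 1 and 2 lay below the 3 WT libraries, and KO replicate 3 lay between WT replicate 1 and WT replicate 3. The log2 fold change of Cox6a1 was -0.49 (SE 0.49), and 0.05 (SE 0.22) without WT replicate 3. Cox4i1, the main isoform of the largest nuclear subunit, was at 461, 529 and 734 RPKM in KO libraries, against 602, 524 and 1497 RPKM in WT libraries (log2 fold change -0.47, SE 0.44; 0.00, SE 0.24, without WT replicate 3).

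Cox7a2, the widely expressed VIIa isoform, was at 206, 241 and 342 RPKM in KO libraries, against 280, 237 and 738 RPKM in WT libraries, and its log2 fold change of -0.51 (95% interval -1.58 to 0.57) was the lowest of the complex with all libraries. Without WT replicate 3 the value for Cox7a2 was 0.00 (-0.56 to 0.56). Its close relative Cox7a2l, listed here with the subunits, is known for a role in supercomplexes of complexes III and IV, which was not measured here. Cox7a2l was at 75.7, 79.5 and 107 RPKM in KO libraries, against 77.3, 73.1 and 156 RPKM in WT libraries. KO replicate 3 and WT replicate 3 were above the other libraries, which spanned 73.1 to 79.5 RPKM. Cox7a2l had the complex IV value farthest from 0 without WT replicate 3, at 0.20 (95% interval -0.23 to 0.63), against -0.15 (SE 0.32) with it. The other 7 subunits, Cox5a, Cox5b, Cox6b1, Cox6c, Cox7b, Cox7c and Cox8a, had log2 fold changes between -0.43 and -0.26, and between -0.10 and 0.18 without WT replicate 3. The row of Cox8a also names Naa40, so its value is not that of 1 gene. In all, 11 of 11 fitted values were below 0 (median -0.36), and without WT replicate 3 there were 2 below and 9 above (median 0.09).

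The 7 assembly genes of complex IV had means from 0.76 to 479 RPKM. Cox17, a copper chaperone, was at 313, 336 and 475 RPKM in KO libraries, against 337, 307 and 1104 RPKM in WT libraries (log2 fold change -0.40, SE 0.51; 0.19, SE 0.22, without WT replicate 3). Cox11, which delivers copper to the catalytic core, was at 17.7, 18.0 and 19.0 RPKM in KO libraries, against 17.0, 18.9 and 21.1 RPKM in WT libraries, with a log2 fold change of -0.05 (95% interval -0.39 to 0.29), or 0.03 (-0.25 to 0.30) without WT replicate 3. The KO libraries of Cox11 lay within the span of the WT libraries. The copper chaperone Sco2, on a row shared with Tymp, was at 13.0, 10.3 and 18.8 RPKM in KO libraries, against 16.7, 14.8 and 26.3 RPKM in WT libraries. For Sco2 KO was lower in each same-numbered comparison, with log2 differences of -0.34, -0.49 and -0.47, and the groups overlapped because KO replicate 3 exceeded WT replicates 1 and 2. Its log2 fold change was -0.43 (SE 0.28), and -0.20 (SE 0.22) without WT replicate 3.

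With all libraries the heme A synthesis enzymes had higher fitted values in KO. Cox10, which adds the farnesyl tail to heme, was at 1.68, 2.57 and 2.10 RPKM in KO libraries, against 1.87, 1.99 and 1.08 RPKM in WT libraries (log2 fold change 0.25, SE 0.20; 0.08, SE 0.16, without WT replicate 3). Cox15, which converts heme O to heme A, was at 4.63, 4.42 and 5.11 RPKM in KO libraries, against 5.05, 4.53 and 3.01 RPKM in WT libraries (0.16, SE 0.19; -0.02, SE 0.12). For both enzymes WT replicate 3 was the lowest library, the reverse of its place for most structural subunits. Their transcripts are long, at 2915 nt for Cox10 and 4798 nt for Cox15. Over all rows of 2000 nt or more, the median departure of WT replicate 3 from the other WT libraries was -0.22 on the log2 scale. Over the 6 genes of the set with such a length it was 0.14. With all libraries and the length trend removed, the log2 fold change was 0.25 for Cox10 and 0.02 for Cox15. The part of length in either value was not tested. Surf1, an assembly factor that acts with heme A, was at means of 12.5 ± 2.32 RPKM in KO and 15.0 ± 5.50 RPKM in WT (SD, n = 3 each), and the WT mean without replicate 3 was 11.8 RPKM. Sco1, the partner of Sco2, was at 0.908, 0.785 and 0.583 RPKM in KO libraries and 0.806, 0.895 and 0.585 RPKM in WT libraries. Of the 6 assembly genes tested, 4 had fitted values below 0 and 2 above (median -0.13), and without WT replicate 3 there were 2 below and 4 above (median 0.04).

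Complex V held the most abundant RNA of the set. Atpif1 encodes the inhibitor of ATP hydrolysis by the synthase, and in zebrafish and mouse erythroid cells it is also known for its effect on heme synthesis. It was at 1505, 1552 and 2357 RPKM in KO libraries, against 1655, 1350 and 5418 RPKM in WT libraries. WT replicate 3 exceeded every other library, and the remaining WT libraries lay on either side of KO replicates 1 and 2. Its log2 fold change was -0.38 (95% interval -1.73 to 0.97), and 0.24 (-0.41 to 0.89) without WT replicate 3, the farthest from 0 in complex V. The ratio of Atpif1 to Atp5b, the catalytic beta subunit, was 2.06, 2.05 and 2.32 in KO libraries, against 1.82, 1.68 and 3.83 in WT libraries, and the groups overlapped (p = 1.0 by the exact permutation test).

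In the catalytic F1 head, Atp5b averaged 834 ± 157 RPKM in KO and 1043 ± 327 RPKM in WT, and Atp5a1, the alpha subunit, 304 ± 35.3 RPKM in KO and 340 ± 43.0 RPKM in WT (SD, n = 3 each). The protein complex holds alpha and beta in equal number, whereas their RNA ratio, Atp5b over Atp5a1, was 2.67, 2.58 and 2.96 in KO libraries and 2.87, 2.56 and 3.63 in WT libraries. Atp5d, the delta subunit of the central stalk, was at 165, 189 and 252 RPKM in KO libraries, against 221, 194 and 532 RPKM in WT libraries (log2 fold change -0.51, SE 0.41; -0.06, SE 0.21, without WT replicate 3). The gamma and epsilon subunits Atp5c1 and Atp5e had log2 fold changes of -0.30 and -0.48, and without WT replicate 3 of -0.02 for Atp5c1 and 0.16 for Atp5e. Atp5e had the strongest departure of WT replicate 3 among the 48 genes, 3.82-fold the mean of WT replicates 1 and 2.

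Among the membrane subunits that shape the dimer, Atp5k (subunit e) was at 646, 737 and 930 RPKM in KO libraries, against 757, 642 and 2346 RPKM in WT libraries (log2 fold change -0.45, SE 0.51; 0.13, SE 0.23, without WT replicate 3). Atp5j2 (subunit f) was at 388, 462 and 633 RPKM in KO libraries, against 522, 427 and 1654 RPKM in WT libraries. Its log2 fold change of -0.57 (95% interval -1.81 to 0.68) was the lowest of the 47, and became 0.04 (-0.54 to 0.62) without WT replicate 3. Subunit g, Atp5l, and the peripheral stalk genes Atp5f1, Atp5h, Atp5j and Atp5o had values between -0.47 and -0.34, and between -0.03 and 0.06 without WT replicate 3. Atp5s, a little-expressed coupling factor gene, was at 7.94 ± 0.579 RPKM in KO and 8.37 ± 1.12 RPKM in WT (SD, n = 3 each), and the WT mean without replicate 3 was 7.75 RPKM. Over complex V, 16 fitted values were below 0 and 1 above (median -0.36), and without WT replicate 3 there were 7 below and 10 above (median 0.03).

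The c ring, through which protons pass, is built from 1 mature protein encoded by Atp5g1, Atp5g2 and Atp5g3, which differ in their targeting peptides. Their summed level was 479, 593 and 609 RPKM in KO libraries, against 607, 548 and 961 RPKM in WT libraries (p = 0.5 by the exact permutation test). Atp5g3 was at 304, 361 and 405 RPKM in KO libraries, against 405, 350 and 655 RPKM in WT libraries, and Atp5g1 was at 115, 158 and 148 RPKM in KO libraries, against 149, 140 and 241 RPKM in WT libraries. In both genes KO replicate 1 was the lowest and WT replicate 3 the highest library. Atp5g3 gave 63.6%, 60.9% and 66.5% of the sum in KO libraries, against 66.7%, 63.8% and 68.2% in WT libraries, and Atp5g1 gave 24.1% to 26.7% in KO libraries and 24.5% to 25.6% in WT libraries. Atp5g2 gave the least, 12.4%, 12.4% and 9.18% in KO libraries, against 8.76%, 10.5% and 6.76% in WT libraries (p = 0.2 by the same exact permutation test). Atp5g2 itself was at 59.2, 73.5 and 55.9 RPKM in KO libraries, against 53.2, 57.7 and 65.0 RPKM in WT libraries, with KO replicate 2 the highest library. Its log2 fold change was 0.09 (SE 0.18), and 0.17 (SE 0.16) without WT replicate 3. The other two genes had -0.30 (SE 0.27; -0.05 without WT replicate 3) for Atp5g1 and -0.35 (SE 0.30; -0.09 without WT replicate 3) for Atp5g3. Reads shared by these 3 closely related transcripts could have been divided between them, which adds an uncertainty to their shares that was not measured.

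**Figure D3:**
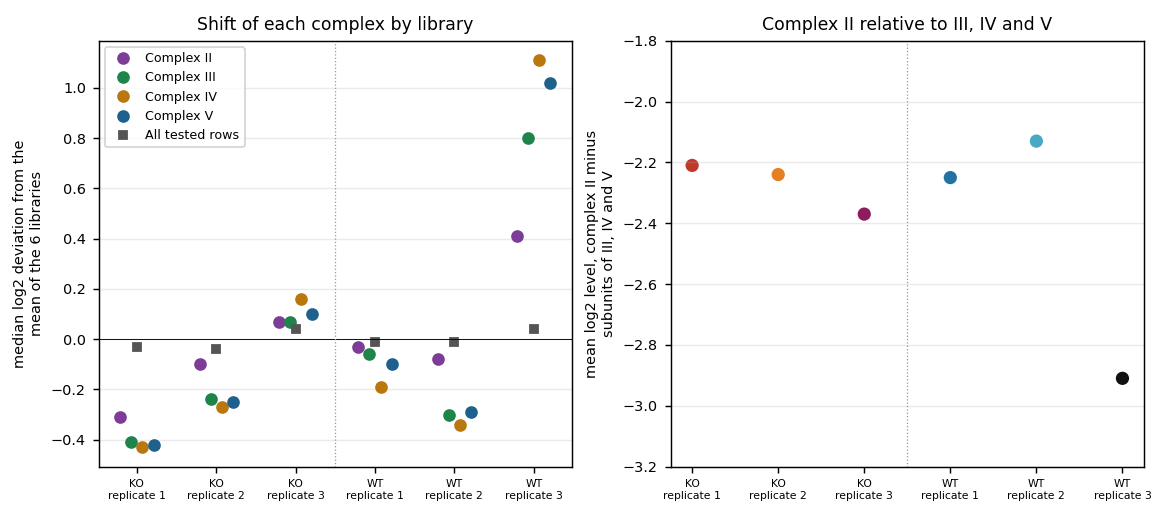
Left, median log2 deviation of the tested subunits of complexes II, III, IV and V and of all tested rows from their mean over the 6 libraries, for KO replicates 1 to 3 and WT replicates 1 to 3. Right, mean log2(RPKM + 1) of complex II minus that of the subunits of complexes III, IV and V in each library, with an axis that does not start at 0: WT replicate 3 lies at -2.91 and the others between -2.37 and -2.13.

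Complex II was then set against complexes III, IV and V. Its mean level was taken on the log2(RPKM + 1) scale, minus that of the 37 genes of the others, Atpif1 and Atp5s included. This difference was -2.21, -2.24 and -2.37 in KO libraries and -2.25, -2.13 and -2.91 in WT libraries. The means were -2.27 ± 0.08 in KO and -2.43 ± 0.42 in WT (SD, n = 3 each), and the WT mean without replicate 3 was -2.19. The KO libraries thus lay within the span of the WT libraries, and the difference between the groups was smaller than the SD among WT libraries. Both that span and that SD were set mainly by WT replicate 3. Against WT replicates 1 and 2 alone, KO replicates 1 and 2 lay within the span and KO replicate 3 lay below it. Against each complex alone the KO mean was above the WT mean, and below it once WT replicate 3 was left out. Complex II minus complex III was -1.83 ± 0.08 in KO and -1.99 ± 0.38 in WT (-1.77 without WT replicate 3). Minus complex IV it was -2.59 ± 0.12 in KO and -2.75 ± 0.50 in WT (-2.46). Minus complex V it was -2.31 ± 0.06 in KO and -2.45 ± 0.39 in WT (-2.22). For complex IV, KO replicates 2 and 3, at -2.53 and -2.72, lay below WT replicates 1 and 2, at -2.52 and -2.41. The median log2 fold change was -0.20 for complex II and -0.36 for the subunits of III, IV and V, a difference of 0.16 that became -0.08 without WT replicate 3. Complex II departed less in WT replicate 3, with a median deviation of 0.41, against 0.80 for complex III, 1.11 for complex IV and 1.02 for complex V.

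Transcript length moved with these departures. The median annotated length was 2065.5 nt for complex II and 765.25 nt for the subunits of III, IV and V with a length, against 2696.5 nt for all tested rows. Across the 45 tested genes with a length, log2 length and the departure of WT replicate 3 from WT replicates 1 and 2 had r = -0.79 (rho = -0.76), and across 7927 tested rows r = -0.55 (rho = -0.67). These are correlations across genes of the same libraries, and genes are not independent replicates. For transcripts of 200 to 600 nt the median departure of WT replicate 3 on the log2 scale was 1.67 over 12 of the genes and 1.38 over 188 rows, and for those of 2000 nt or more it was 0.14 over 6 genes and -0.22 over 5296 rows. Among the 69 rows of 200 to 600 nt with a mean of at least 100 RPKM, which include these 12 genes, the median departure was 1.43. At this level it was 1.24 for 600 to 1000 nt and 0.89 for 1000 to 2000 nt, against 0.99 and 0.53 over all rows. For 2000 nt or more it was 0.32, against -0.22. Shorter genes of the set were also more abundant, with r = -0.64 between log2 length and mean log2 level across the 45 genes. The parts of length and level were not separated. With the length trend removed, the median deviation in WT replicate 3 was 0.09 for complex II and 0.33 for the subunits of III, IV and V, against -0.01 for all rows with a length. In KO replicate 3 the departure from KO replicates 1 and 2 also went with length, with r = -0.51 (rho = -0.58) across the 45 genes. What sets the length dependence, in the RNA, the library or the RPKM estimate, was not tested.

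**Figure D4:**
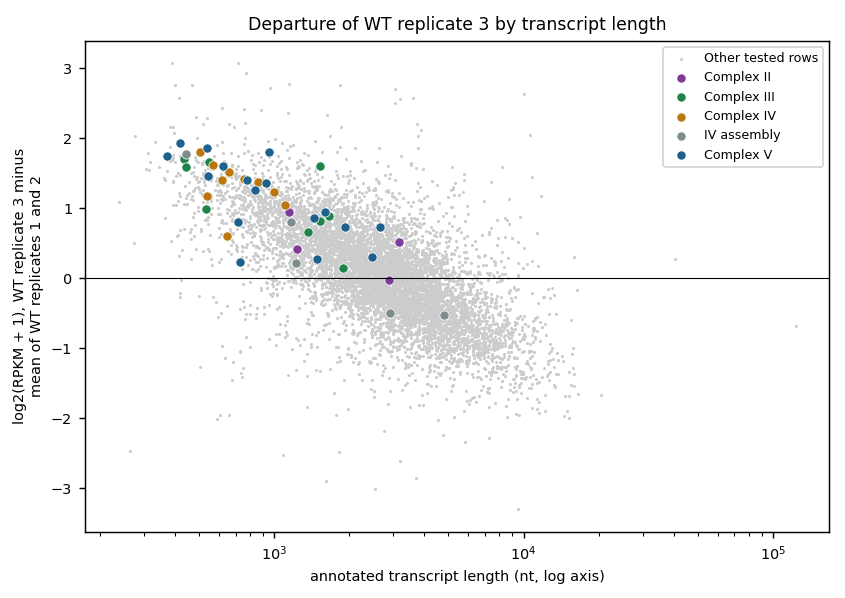
Log2(RPKM + 1) in WT replicate 3 minus the mean of WT replicates 1 and 2, against annotated transcript length in nt (log axis), for the 45 tested genes with a length (coloured by complex) and for the other tested rows (grey). Short transcripts lie above 0 and long ones around or below it, with r = -0.79 across the coloured points.

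Genes that work beside these complexes were measured in the same fit. Cycs, the cytochrome c that carries electrons from complex III to complex IV, was at 158, 190 and 212 RPKM in KO libraries, against 205, 184 and 346 RPKM in WT libraries (log2 fold change -0.34, SE 0.29; -0.07, SE 0.18, without WT replicate 3). Of 36 nuclear complex I subunits 0 passed, with 35 fitted values below 0 and 1 above (median -0.39), and without WT replicate 3 there were 11 below and 25 above (median 0.04). On a list of assembly and translation factors for complexes II to V that also holds Cycs, 0 of 25 tested genes passed, with 19 below 0 and 6 above (median -0.13), and without WT replicate 3 there were 15 below and 10 above (median -0.03). The mRNAs encoded by mitochondrial DNA were not analysed here, so the nuclear subunits could not be set against their mitochondrially encoded partners.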

How the data were processed

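RNA was measured in 6 libraries (Tfam KO and Tfam WT, 3 each), made from total RNA with a TruSeq v2 kit and read on a NextSeq500, per the labels' protocols. The authors deposited 1 table of RPKM values, made with TopHat and Cufflinks on build mm9, per the submitters' processing notes. The sources used here do not give versions, annotation or strand setting. Read depth is unknown, so no counting interval can be given. RPKM divides by transcript length and mapped total. A library that recovered long transcripts less well would show short genes at higher values. Such recovery was not measured here.

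Rows were split on commas to find each gene, and rows joining several names (492) cannot be assigned to 1 gene. The 25 rows with a number for a name, 0.158% of the RPKM sum, were left out. Rows with a mean of at least 1 RPKM were tested on log2(RPKM + 1), which understates changes of low genes, with limma 3.58.1 (R 4.3.3), a variance trend and Benjamini-Hochberg adjustment at 0.05, without a replicate block. The test was checked on simulated data with noise drawn independently for each gene and library, so shifts shared across a library were not covered. Alternatives were a pseudocount of 0.1, no minimum or one of 5 RPKM, quantile and median scaling, no variance trend, array weights, a replicate block, removal of a length trend and each library left out. Lengths are from GENCODE vM21 (GRCm38), for genes matched by name.

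Replicates are numbered 1 to 3 alike in KO and WT. As deviations from each group's mean, same-numbered libraries correlated at 0.461 (numbered 1), 0.171 (numbered 2) and 0.526 (numbered 3). Each was above 0.1, although the correlation of WT replicate 2 with KO replicate 1 was higher (0.40). No label gives a pairing, and the main fit, its intervals and the permutation tests are unpaired. The numbers were used only for the same-numbered comparisons and the fits with a replicate block.

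The genes and lists were chosen with earlier results of these data known. Every library's value is given for the 4 complex II genes, Atp5g1, Atp5g2, Atp5g3, Tfam, Cycs, Nrf1 and Gabpa. In each other group it is given for the 2 genes with the highest mean, the 2 with the largest fitted change and the 1 with the largest without WT replicate 3. Cox10, Cox15, Sco1 and Cox6b2, as well as the ratios between genes, were picked for display after their values were seen. Figures were drawn with matplotlib 3.10.9 in Python 3.11.15.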

Additional observations from a re-analysis of the deposited data

How the results depend on the processing

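The count of genes of complexes II to V past the threshold was 0 under all 17 alternatives. Without WT replicate 3 the median log2 fold change turned to 0.02 for complex III, 0.09 for complex IV, 0.04 for its assembly genes and 0.03 for complex V, and was -0.05 for complex II. In the limma fit with the replicate block 0 of the 47 genes passed (lowest adjusted p 0.715). Over all tested rows the block called 0, against 60 with array weights (in which WT replicate 1 had a weight of 21.4), 1 without WT replicate 3 with the length trend also removed (an alternative chosen after seeing the data), and 0 to 2 when 1 library was left out: 2 without KO replicate 2, 1 without KO replicate 3 and 1 without WT replicate 3. Signs of uncalled fold changes turned in some fits. Over the 6 fits that leave out 1 library, the log2 fold change ran from -0.81 to 0.01 for Uqcrq, -0.77 to 0.11 for Uqcrh, -0.81 to 0.03 for Uqcr11, -0.75 to 0.00 for Cox4i1, -0.78 to 0.05 for Cox6a1, -0.34 to 0.20 for Cox7a2l, -0.12 to 0.03 for Cox11, -0.73 to 0.19 for Cox17, -0.94 to 0.04 for Atp5j2, -0.81 to 0.13 for Atp5k and -0.76 to 0.24 for Atpif1, with the upper value in each case without WT replicate 3. Without that library and with the length trend removed it was 0.06 for Uqcrh, 0.17 for Cox7a2l, 0.01 for Cox11, 0.14 for Cox17, 0.00 for Atp5j2, 0.07 for Atp5k and 0.19 for Atpif1. With all libraries and the length trend removed, with or without the replicate block, it was 0.05 for Sdhd, 0.09 for Cox7a2l and 0.17 for Cox11. Quantile scaling gave 0.03 for Sdha, 0.04 for Cox7a2l and 0.00 for Cox11. Array weights gave 0.08 for Cox7a2l, 0.08 for Cox11 and 0.02 for Cox17. Without KO replicate 2 Atp5g2 was at -0.02. The causes of the turns other than the library left out were not tested. RPKM keeps no read depth, so the precision of single values is unknown, and 3 libraries a group with WT replicate 3 apart leave intervals as wide as -1.73 to 0.97 for Atpif1.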

Other observations

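Complex IV has subunit isoforms that are known from other tissues, and 1 of the 7 listed was abundant in these erythroid cells. Cox6b2, known as the testis isoform of subunit VIb, was at 220, 189 and 210 RPKM in KO libraries, against 147, 119 and 327 RPKM in WT libraries. Every KO library was above WT replicates 1 and 2, as in 5.42% of tested rows, and WT replicate 3 was above every KO library. The log2 fold change of Cox6b2 was 0.20 (SE 0.38), and 0.63 (SE 0.17) without WT replicate 3, where limma's adjusted p was 1.0. Cox6b2 made up 37.2%, 29.9% and 26.7% of the summed level of Cox6b1 and Cox6b2 in KO libraries, against 24.5%, 24.2% and 23.1% in WT libraries. For this share every KO library was above every WT library (p = 0.1 by the exact permutation test, the lowest value it can give here). How often shares of other gene pairs separate in this way was not computed. Both the gene and this share were picked with their values in view. The isoforms of muscle or lung, Cox4i2, Cox6a2, Cox7a1 and Cox8b, had means below 1 RPKM, and Cox7b2 and Cox8c were listed at 0.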
